A study of Homo sapiens with 6 samples.

Results

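The Hippo pathway genes described here were the 10 rows of the expression table, out of 26025 genes, whose gene name was YAP1, WWTR1, TEAD1, TEAD4, LATS1, LATS2, AMOTL1, AMOTL2, ANKRD1 or AJUBA. They were chosen by name, and all 10 passed the filter on low values. RNA was sequenced from NCI-H1299, an established line of human non-small cell lung carcinoma. The 3 NE libraries came from cells treated with 10 µM norepinephrine (NE), the sympathetic neurotransmitter that activates adrenergic receptors, for 48 h. The 3 Ctrl libraries came from cells given vehicle, which the sample records name both as DMSO and as PBS. Cells of both groups were first kept in DMEM for 8 to 12 h and then in RPMI-1640 with 2% FBS. Nothing states whether the 3 libraries of a group came from separate cultures, so the p-values measure the spread between these libraries. A cell line in culture lacks the stroma and nerves of a tumor.

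The Hippo pathway restrains growth through a kinase cascade. The kinases MST1 and MST2 activate LATS1 and LATS2, which phosphorylate the coactivators YAP (gene YAP1) and TAZ (gene WWTR1) and keep them out of the nucleus. Unphosphorylated YAP and TAZ enter the nucleus, bind the DNA-binding TEAD factors and drive genes such as ANKRD1, CCN1 and CCN2. Receptors that couple to Gs and protein kinase A are known to raise LATS activity and to restrain YAP. RNA levels do not show the phosphorylation or the location of these proteins.

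In NE-treated cells YAP1, TEAD1, LATS1 and LATS2 were higher, and TEAD4, AMOTL2, ANKRD1 and AJUBA were lower, while WWTR1 and AMOTL1 did not pass the test. The largest changes were the 3.02-fold rise of TEAD1, the 2.42-fold rise of LATS2 and the fall of ANKRD1 to 0.267 of its Ctrl level. Calls were made with limma where the p adjusted by Benjamini-Hochberg was under 0.05, on log2(value + 1) of the normalized counts over all 15013 genes with a mean of at least 10. On this scale a fold change understates the change of low genes. Thus 4 of the 10 genes were called higher and 4 lower, where 24.6% of all tested genes were called higher and 25.5% lower. With the added criterion of at least 2-fold, TEAD1 and LATS2 were higher and ANKRD1 was lower, against 7.47% and 6.55% of all tested genes. The median log2 fold change of the 10 genes was -0.01, and that of all tested genes was 0.01. The 3 NE libraries did not overlap the 3 Ctrl libraries for 8 of the 10 genes, and for 58.6% of all tested genes. In cells of one line, fewer cells with a transcript and less of it per cell cannot be told apart.

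**Figure D1:**
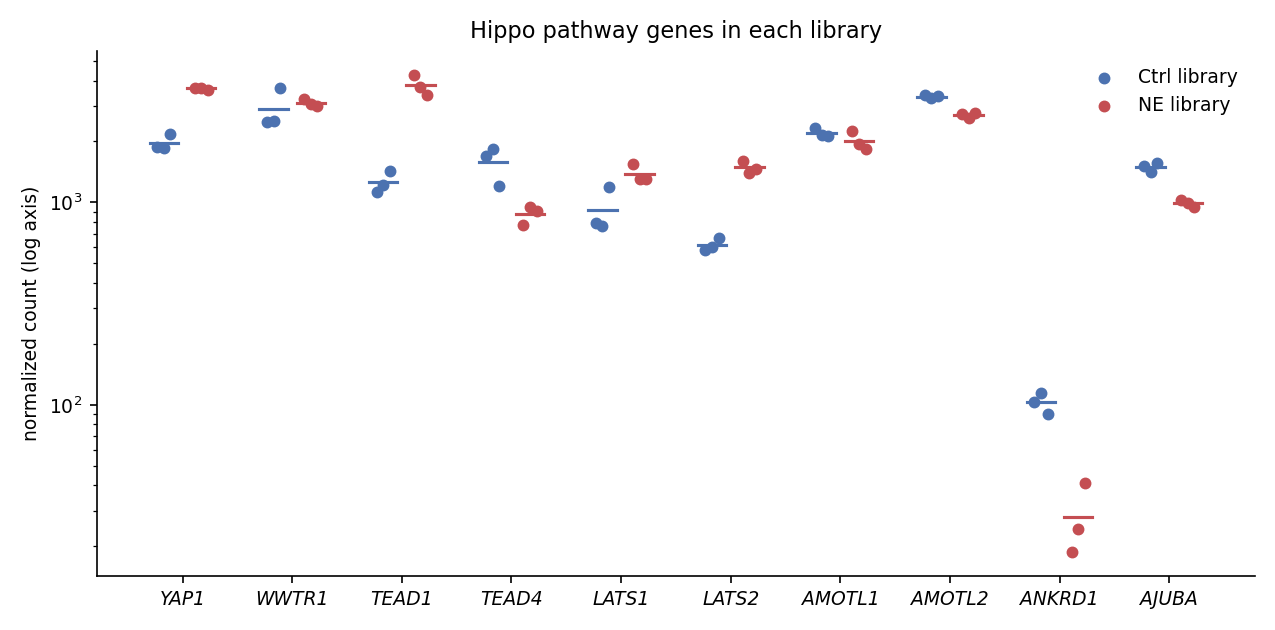
Normalized counts of the 10 Hippo pathway genes (log axis) in the 3 Ctrl libraries (blue) and the 3 NE libraries (red), with a bar at each group mean. The groups do not overlap for 8 genes and overlap for WWTR1 and AMOTL1, and ANKRD1 lies far below the other genes in both groups.

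The libraries held 17373654 to 17979206 reads on genes in Ctrl and 16852751 to 17325039 in NE-treated cells. Ctrl replicate 3 stood apart, listing 7305 genes at 0 reads where the other Ctrl libraries listed 4829 and 4833, so values without it are also given. The mitochondrial share of reads moved with the treatment, from 4.68-5.46% in Ctrl to 6.05-9.26% in NE-treated cells. The summed level of 5 epithelial markers fell with it, from 27658-38810 to 11914-14054 normalized counts, nearly all from KRT8 and KRT18, and CDH1 was at 0 in 4 of the 6 libraries. The 3 mesenchymal markers summed to 63235-80892 in Ctrl and 49174-62819 in NE-treated cells, mostly VIM, which was lower (log2 fold change -0.38), while CDH2 and FN1 were higher (0.64 and 0.77). The lung lineage markers NKX2-1 and SFTPB summed to at most 3.87 and the leukocyte marker CD68 was at most 2.09 in any library, and the endothelial and fibroblast lists reached at most 36.6 and 41.5. The part of these differences in the results was not tested.

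Across 14955 tested genes the log2 fold change ran against exonic GC content (Spearman correlation -0.64), a description over genes that share libraries. Median log2 fold changes were 0.66 at 35 to 40% GC and -0.69 at 60 to 65% GC. In the outer bins they were 0.81 at 30 to 35%, -0.76 at 65 to 70% and -0.57 at 70 to 75%. The 4 genes that were higher had a median GC content of 43.1% and the 4 that were lower 54.4%, against 47.5% for all tested genes. The trend on GC content was therefore also removed within each library, and for the 10 genes the values after this correction are given beside the reported ones. After it YAP1, TEAD1 and LATS2 were called higher and ANKRD1 and AJUBA lower, against 14.5% and 17.7% of all genes. The changes of TEAD4, LATS1 and AMOTL2 did not pass the test after it.

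**Figure D2:**
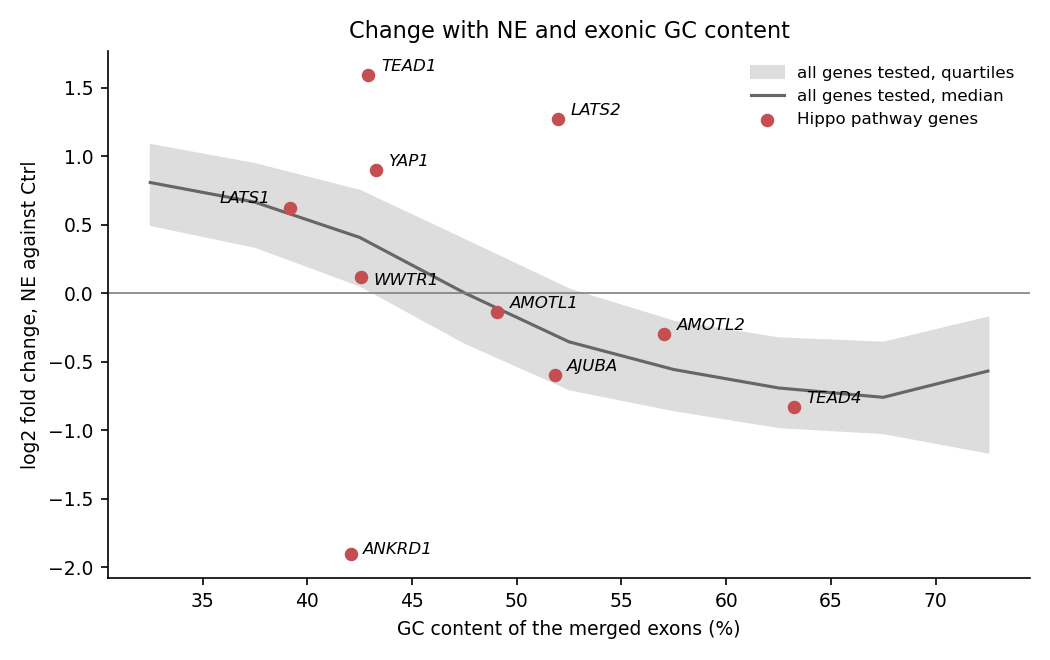
Log2 fold change of NE against Ctrl plotted on the GC content of the merged exons. The grey line and band are the median and quartiles of all tested genes in bins of 5 percentage points, and the red points are the 10 Hippo pathway genes. TEAD1, YAP1 and LATS2 lie above the band and ANKRD1 below it, whereas LATS1, WWTR1, AMOTL1, AMOTL2, AJUBA and TEAD4 lie inside.

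YAP1 and WWTR1 encode the coactivators, which bind no DNA on their own. YAP1 (ENSG00000137693) lies on the plus strand of chromosome 11 of hg38, from 102110447 to 102233424 in GENCODE v44, and its exons hold 43.3% GC. Its normalized counts were 1880, 1848 and 2174 in the Ctrl libraries and 3690, 3681 and 3595 in the NE libraries. All 3 NE libraries lay above the Ctrl libraries, and the NE libraries were close to one another. The mean rose from 1967 ± 180 to 3655 ± 52.6 (SD, n = 3 each), a log2 fold change of 0.90 (standard error 0.10, 95% interval 0.67 to 1.13, adjusted p = 0.000239 from limma). YAP1 was called in each of 19 other settings and stood at 0.56 once the GC trend was removed (adjusted p = 0.000662 from limma). The exact permutation test, two-sided, gave p = 0.1 for each of the 8 genes without overlap, the smallest p that 3 against 3 libraries allow.

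WWTR1 (ENSG00000018408), on the minus strand of chromosome 3 from 149517235 to 149736714, had 2482, 2529 and 3672 normalized counts across the Ctrl libraries. It had 3246, 3050 and 2995 in the NE libraries. Ctrl replicate 3 was the highest of the 6 libraries, above all NE libraries, and the other Ctrl libraries were the lowest. The log2 fold change was 0.12 (95% interval -0.22 to 0.46, adjusted p = 0.527 from limma; exact permutation p = 0.6). Without Ctrl replicate 3 it was 0.30 (adjusted p = 0.00403 from limma). After the GC correction it was -0.27 (adjusted p = 0.0785), and with length corrected as well -0.33 (adjusted p = 0.0337 from limma), so its direction depended on the processing. Of its exonic bases 9.05% are shared with the antisense gene WWTR1-AS1, and without strand in the library kit their reads cannot be told apart. The same limit holds for YAP1, of whose exonic bases 9.95% are shared with the antisense gene ENSG00000254422. It also holds for AMOTL1 (4.9%) and LATS1 (3.03%), which overlap antisense lncRNA genes.

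Per exon length, as FPKM recomputed from the reads, YAP1 and WWTR1 were at about the same level in Ctrl and YAP1 was above WWTR1 in NE-treated cells. The YAP1 to WWTR1 ratio was 1.002, 0.967 and 0.784 in the Ctrl libraries. It was 1.50, 1.60 and 1.59 in the NE libraries, without overlap. The mean log2 ratio differed by 0.78 (standard error 0.11), by 0.67 without Ctrl replicate 3 and by 0.83 after the GC correction.

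The TEAD genes encode the DNA-binding partners of YAP and TAZ. TEAD1 (ENSG00000187079), on the plus strand of chromosome 11 from 12674421 to 12944737, had 1125, 1214 and 1430 normalized counts across the Ctrl libraries. It had 4279, 3718 and 3394 in the NE libraries, so that the lowest NE library was far above the highest Ctrl library. The mean rose from 1256 ± 157 to 3797 ± 448 (SD, n = 3 each), a log2 fold change of 1.60 (standard error 0.13, 95% interval 1.30 to 1.89, adjusted p = 6.24e-05 from limma). It was 1.23 after the GC correction, and TEAD1 was called in all 19 other settings.

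TEAD4 (ENSG00000197905), on the plus strand of chromosome 12 from 2959330 to 3040676, moved the other way. Its normalized counts were 1703, 1831 and 1201 in the Ctrl libraries and 772, 949 and 910 in the NE libraries. Every NE library was below every Ctrl library, with Ctrl replicate 3 the nearest to them. The mean fell from 1578 ± 333 to 877 ± 93.2 (SD, n = 3 each), a log2 fold change of -0.83 (standard error 0.17, 95% interval -1.21 to -0.45, adjusted p = 0.00325 from limma). TEAD4 has the highest exonic GC content of the 10 genes, 63.3%, and after the GC correction it was at -0.18 (adjusted p = 0.192 from limma).

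The 2 other TEAD genes were taken from a wider list of the pathway. TEAD2 fell from 484 ± 143 to 205 ± 26.4 normalized counts (SD, n = 3 each), a log2 fold change of -1.19 (adjusted p = 0.00253 from limma) and -0.63 after the GC correction (adjusted p = 0.0161). TEAD3 was at 188 ± 56.3 and 135 ± 9.32 (SD, n = 3 each), a log2 fold change of -0.42 (adjusted p = 0.164 from limma), of the opposite sign after the GC correction (0.17). TEAD1 was thus the single TEAD gene called higher.

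Set per exon length, the makeup of the family differed, while its sum overlapped between the groups only through Ctrl replicate 3. TEAD1 made up 9.37%, 9.67% and 16.5% of the summed FPKM of the 4 genes in the Ctrl libraries, and 47.6%, 39.4% and 37.9% in the NE libraries. TEAD4 made up 66.8% ± 1.67 in Ctrl and 45.1% ± 4.13 in NE-treated cells, and TEAD2 15.5% ± 2.04 and 8.05% ± 0.930 (SD, n = 3 each). The groups did not overlap in any of these shares. The share of TEAD3 was 5.86% ± 0.836 and 5.21% ± 0.454 (SD, n = 3 each), with overlap. The summed FPKM was 61.7, 64.4 and 45.9 in the Ctrl libraries and 49.1, 54.1 and 53.3 in the NE libraries. Only Ctrl replicate 3 lay below the NE libraries, and the other Ctrl libraries lay above them. The mean TEAD1 to TEAD4 ratio differed by 2.43 on the log2 scale (standard error 0.33), or 5.37-fold. It differed by 2.71 without Ctrl replicate 3 and by 1.41 after the GC correction.

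**Figure D3:**
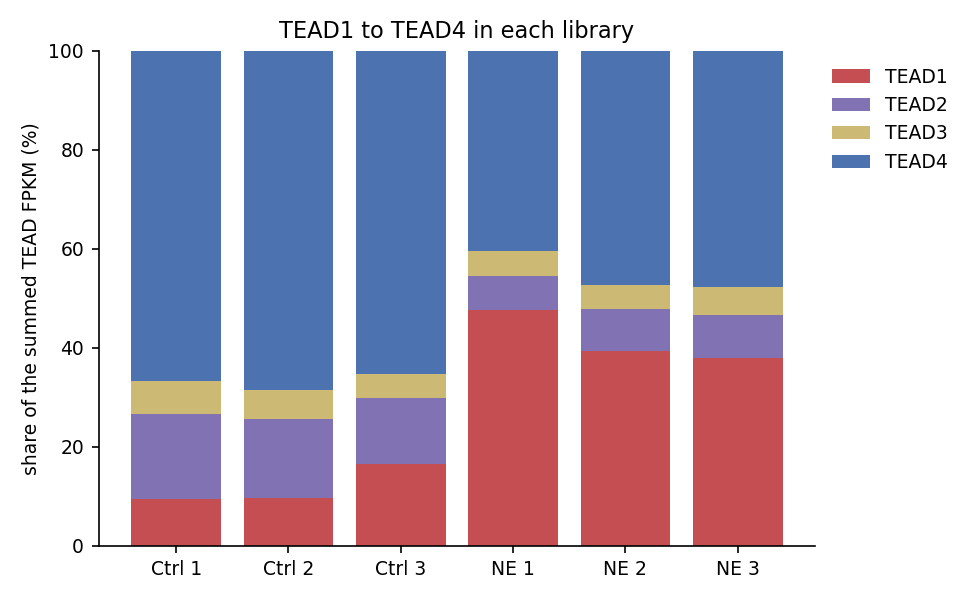
Share of TEAD1, TEAD2, TEAD3 and TEAD4 in their summed FPKM (%), as 1 stacked bar for each library. TEAD1 takes 9.37 to 16.5% in the Ctrl libraries and 37.9 to 47.6% in the NE libraries, and the TEAD4 share is smaller in every NE library than in every Ctrl library.

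LATS1 and LATS2 encode the kinases that phosphorylate YAP and TAZ, and LATS2 is itself a known YAP target. LATS2 (ENSG00000150457), on the minus strand of chromosome 13 from 20973036 to 21061586, had 581, 599 and 665 normalized counts across the Ctrl libraries. It had 1606, 1400 and 1461 in the NE libraries, all far above Ctrl. The mean rose from 615 ± 44.3 to 1489 ± 106 (SD, n = 3 each), a log2 fold change of 1.27 (standard error 0.11, 95% interval 1.02 to 1.53, adjusted p = 9.35e-05 from limma). Its exons hold 52.0% GC, and genes of 50 to 55% GC had a median log2 fold change of -0.35; the GC-corrected value was larger, 1.56.

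LATS1 (ENSG00000131023), on the minus strand of chromosome 6 from 149658153 to 149718105, had 789.6, 763 and 1192 normalized counts across the Ctrl libraries and 1556, 1298 and 1308 in the NE libraries. The NE libraries were all above Ctrl, but Ctrl replicate 3 lay nearer to them than to the other Ctrl libraries. The log2 fold change was 0.63 (standard error 0.18, 95% interval 0.23 to 1.02, adjusted p = 0.0156 from limma). It was not called without Ctrl replicate 1, Ctrl replicate 2 or NE replicate 1 (adjusted p = 0.0519, 0.0589 and 0.0724 from limma). Its GC content, 39.2%, is the lowest of the 10 genes, and after the GC correction the value was 0.04 (adjusted p = 0.782 from limma).

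The LATS2 to LATS1 ratio, per exon length, was 1.11, 1.19 and 0.845 in the Ctrl libraries. It was 1.56, 1.63 and 1.69 in the NE libraries, without overlap. The mean log2 ratio differed by 0.65 (standard error 0.15), by 0.50 without Ctrl replicate 3 and by 1.51 after the GC correction.

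AMOTL1 and AMOTL2 encode angiomotin-like scaffolds, which bind YAP and TAZ and hold them outside the nucleus. AMOTL1 (ENSG00000166025), on the plus strand of chromosome 11 from 94706431 to 94876748, had 2324, 2157 and 2126 normalized counts across the Ctrl libraries and 2254, 1949 and 1827 in the NE libraries. The groups overlapped. The log2 fold change was -0.14 (95% interval -0.39 to 0.11, adjusted p = 0.33 from limma; exact permutation p = 0.3), and the gene was not called in the 19 other settings, edgeR (adjusted p = 0.304) and DESeq2 (0.421) among them, and stood at -0.04 after the GC correction.

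AMOTL2 (ENSG00000114019), on the minus strand of chromosome 3 from 134355347 to 134375479, had 3378, 3276 and 3342 normalized counts across the Ctrl libraries and 2737, 2624 and 2765 in the NE libraries. The spread within each group was narrow and the groups lay apart. The log2 fold change was small, -0.30 (standard error 0.09, 95% interval -0.50 to -0.10, adjusted p = 0.0212 from limma). It was called in 11 of the 19 other settings, not with quantile scaling (adjusted p = 0.248 from limma), not with the replicate block (adjusted p = 0.0564 from limma) and not without Ctrl replicate 1 or 2 or NE replicate 2 or 3 (adjusted p from 0.0503 to 0.106). After the GC correction the sign turned, to 0.21 (adjusted p = 0.127 from limma). The AMOTL1 to AMOTL2 ratio overlapped between the groups, with a mean log2 difference of 0.16 (standard error 0.10).

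AJUBA encodes a LIM domain protein that binds LATS kinases and holds back their action on YAP. AJUBA (ENSG00000129474), on the minus strand of chromosome 14 from 22971177 to 22982551, had 1507, 1409 and 1568 normalized counts across the Ctrl libraries and 1032, 988 and 947 in the NE libraries. Every NE library was below every Ctrl library by more than the spread within either group. The mean fell from 1495 ± 80.0 to 989 ± 42.5 (SD, n = 3 each), a log2 fold change of -0.60 (standard error 0.10, 95% interval -0.83 to -0.36, adjusted p = 0.00153 from limma). After the GC correction it was at -0.32 (adjusted p = 0.0395 from limma). Of its relatives in the Ajuba family, picked here after their values were seen, WTIP was at -0.996 (adjusted p = 0.00567 from limma) and at -0.54 after the GC correction, and LIMD1 at -0.17 (adjusted p = 0.283).

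ANKRD1 encodes an ankyrin repeat protein and is a widely used readout of YAP and TAZ activity. ANKRD1 (ENSG00000148677), on the minus strand of chromosome 10 from 90912096 to 90921087, had 104, 114 and 90.2 normalized counts across the Ctrl libraries. It had 18.8, 24.2 and 41.1 in the NE libraries, all below Ctrl, with the largest relative spread among the 10 genes. The mean fell from 103 ± 12.0 to 28.0 ± 11.7 (SD, n = 3 each), a log2 fold change of -1.90 (standard error 0.31, 95% interval -2.60 to -1.21, adjusted p = 0.0011 from limma). ANKRD1 was called in all 19 other settings and was at -2.32 after the GC correction, although its exons, at 42.1% GC, fall in the bin of 40 to 45% where the median of all genes was 0.41.

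**Figure D4:**
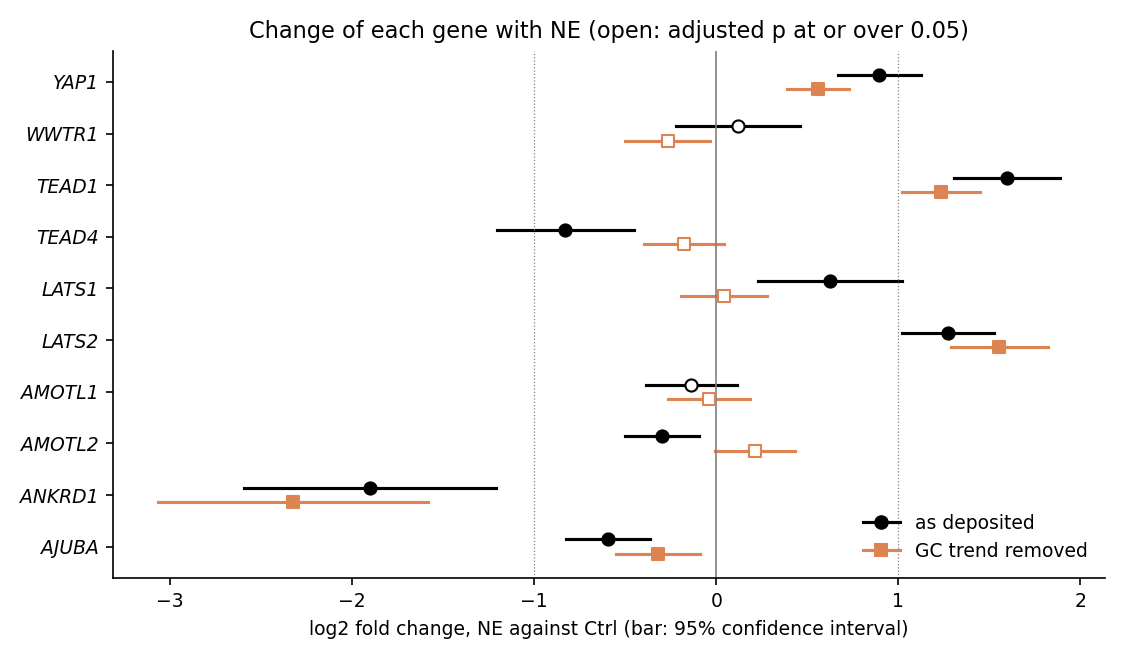
Log2 fold change of NE against Ctrl for the 10 Hippo pathway genes, with 95% confidence intervals, as reported (black circles) and with each library's GC trend removed (orange squares). Open symbols have an adjusted p of 0.05 or more. YAP1, TEAD1, LATS2, ANKRD1 and AJUBA keep filled symbols in both, and AMOTL2 and WWTR1 change sign.

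Levels were also compared between genes as FPKM, per exon length and per total reads on genes of each library. This scaling differs from the size factors behind the fold changes. AMOTL1, for example, had means of 2202 in Ctrl and 2010 in NE as normalized counts, but 12.19 and 12.20 as FPKM. In Ctrl cells TEAD4 was the highest of the 10 genes, with a mean FPKM of 38.4 ± 7.47 (SD, n = 3), ahead of AMOTL2 at 28.6 ± 0.773. WWTR1 and YAP1 followed at 19.3 ± 4.90 and 17.3 ± 1.93, not separated from each other. AJUBA stood at 14.1 and AMOTL1 at 12.2, and TEAD1, LATS2 and LATS1 at 6.53, 6.09 and 6.002 overlapped. ANKRD1 was the lowest at 3.18 ± 0.319. In Ctrl the coactivators thus stood below TEAD4 and above TEAD1. In NE-treated cells YAP1 was the highest at 35.4 ± 1.08 (SD, n = 3). AMOTL2, TEAD4, WWTR1 and TEAD1 came next between 25.5 and 21.6, and neighbours among them overlapped. LATS2 at 16.2 was above AMOTL1 at 12.2, AJUBA and LATS1 overlapped near 10.2 and 9.95, and ANKRD1 was at 0.967 ± 0.440. Levels of genes that differ in GC content carry the trend described above.

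Without Ctrl replicate 3 the log2 fold changes were 0.97 for YAP1, 1.69 for TEAD1, 0.83 for LATS1 and 1.33 for LATS2. They were -1.01 for TEAD4, -0.30 for AMOTL2, -1.99 for ANKRD1 and -0.56 for AJUBA, and AMOTL1 was at -0.16. With WWTR1 added, 5 genes were then called higher and 4 lower. The share of all tested genes called in this fit was not counted, so these counts have no base to be set against.

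The letters GGAATG, the core of the TEAD binding site, were looked for on both strands in RefSeq promoter windows of GRCh38.p14, from 250 bases before to 50 after a gene's start. Windows were matched for 8 of the 10 genes, 12 windows in all. TEAD1 and TEAD4 were not among them. The letters were present in 5 of the 12 windows, one each of YAP1, LATS2, AMOTL2, ANKRD1 and AJUBA, and in 14.03% of all 35116 windows. ANKRD1 held 2 matches, as 1.37% of windows held at least that many. CCN2, a target gene of the wider list, held 3. Genes with a match were higher (YAP1, LATS2) and lower (AMOTL2, ANKRD1, AJUBA) in NE-treated cells. A match is a description of the letters and not of binding. The stretches around the matches in ANKRD1 and CCN2, 2 standard readouts of YAP, and in the other 4 genes are given 5′ to 3′ on the strand of the gene, with the matches in capitals:
ANKRD1 (chr10:90921193-90921322, minus): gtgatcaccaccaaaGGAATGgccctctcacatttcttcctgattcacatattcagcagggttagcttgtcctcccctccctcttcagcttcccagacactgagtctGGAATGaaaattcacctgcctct
CCN2 (chr6:131951453-131951552, minus): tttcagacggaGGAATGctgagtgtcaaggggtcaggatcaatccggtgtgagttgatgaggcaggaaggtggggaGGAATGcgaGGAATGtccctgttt
AMOTL2 (chr3:134374500-134374527, minus): tgaaactctcaCATTCCtggcatagcag
AJUBA (chr14:22976885-22976912, minus): ggaagttggctGGAATGaagccaaagca
YAP1 (chr11:102110232-102110301, plus): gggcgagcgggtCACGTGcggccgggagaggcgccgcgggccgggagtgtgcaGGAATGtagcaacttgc
LATS2 (chr13:21061567-21061646, minus): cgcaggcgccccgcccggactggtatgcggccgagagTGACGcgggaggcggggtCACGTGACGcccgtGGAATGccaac

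In AMOTL2 the match is the reverse complement, CATTCC. In YAP1 the capitals also mark an E-box, CACGTG, the kind of site that CLOCK and related factors bind, which was found in 7.26% of all windows. In LATS2 they mark an E-box that overlaps the second of 2 TGACG half-sites of the cAMP response element, which CREB binds. The half-site was found in 24.6% of all windows, and among the 10 genes also in AMOTL1 and in 1 window of WWTR1. The full element TGACGTCA, found in 1.85% of all windows and overlapping the half-site by definition, was in no window of these genes. The ANKRD1 and CCN2 stretches lie upstream of the gene, that of CCN2 inside the lncRNA gene LINC01013 on the other strand. The YAP1 stretch overlaps an exon of the antisense gene ENSG00000277459, the AMOTL2 and AJUBA stretches lie in exons of longer transcripts of those genes, and the last 20 bases of the LATS2 stretch lie in its first exon.

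Beyond the 10 genes, a list of 61 other Hippo regulators was examined, of which 59 were analysed and 57 tested. Of these, 22 were higher and 12 lower in NE-treated cells, 38.6% and 21.1%, where 24.6% and 25.5% of all tested genes were called, with a median log2 fold change of 0.11. After the GC correction 8 were higher and 9 lower, where 14.5% and 17.7% of all genes were called. The genes that were higher had a median GC content of 40.9% and those that were lower 59.8%, so the list divided along the same trend as the table.

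Among the upstream kinases and their adaptors 7 of 14 tested genes were higher and 2 lower, where 24.6% and 25.5% of all tested genes were called. After the GC correction 1 was higher and 3 lower, where 14.5% and 17.7% of all genes were called. These 3 were not the 2 lower before it. Named after their values were seen, they were STK4 at -0.28, SAV1 at -0.73 and MAP4K4 at -0.26 (adjusted p = 0.0493, 0.000918 and 0.0479 from limma). Before the correction they were not called, at 0.24, -0.09 and -0.13 (adjusted p = 0.0786, 0.574 and 0.27 from limma). The direction of STK4 thus depended on the correction. TAOK1, a kinase that activates MST1 and MST2, rose from 1082 ± 231 to 2560.0 ± 360.4 normalized counts (SD, n = 3 each), a log2 fold change of 1.25 (adjusted p = 0.000425 from limma), and was at 0.76 after the correction. MAP4K2, which can act on LATS in parallel to MST, was at -0.77 (adjusted p = 0.00268 from limma), and at -0.33 after the correction, where it was not called (adjusted p = 0.0684). Of the 8 genes of STRIPAK, the phosphatase complex that opposes MST, 6 were higher, where 24.6% of all tested genes were. These 6 had a median GC content of 38.3%, in the bin of 35 to 40% where the median of all genes was 0.66. MOB4, a subunit of the complex, was at 1.04 (adjusted p = 0.016 from limma), and was not called without NE replicate 1 (adjusted p = 0.0738). After the GC correction the lowest adjusted p of the group was 0.124 in limma, and MOB4 was at 0.37.

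Among scaffolds and YAP binders 3 of 13 tested genes were higher and 3 lower, 23.1% each, near the 24.6% and 25.5% of all tested genes. After the GC correction 4 were higher and 3 lower, where 14.5% and 17.7% of all genes were called. PTPN14, a phosphatase that binds YAP, rose by 0.74 on the log2 scale (adjusted p = 0.00172 from limma), and was at 0.60 after the GC correction. RASSF1, a scaffold of MST, was at -1.06 (adjusted p = 0.0046 from limma) and at -0.44 after the GC correction (adjusted p = 0.154). Chosen after their values were seen, WWC1, or KIBRA, which activates the cascade together with NF2, was at 0.71 and at 1.02 after the correction (adjusted p = 6.11e-05 from limma). NF2, or merlin, was at -0.90 and at -0.47 after it (adjusted p = 0.0265 from limma).

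Among polarity genes and atypical cadherins 4 of 9 tested genes were higher and 3 lower, where 24.6% and 25.5% of all tested genes were called. After the GC correction 2 were higher and 0 lower, where 14.5% and 17.7% of all genes were called. FAT4, the receptor cadherin related to fly Fat, had 140.3, 171 and 216 normalized counts across the Ctrl libraries and 836, 728 and 606 in the NE libraries. These groups lay far apart, with a log2 fold change of 2.05 (adjusted p = 0.000102 from limma) and 1.73 after the GC correction. LLGL2, a basolateral polarity gene, was at -0.83 (adjusted p = 0.00207 from limma), and at -0.22 after the GC correction, where it was not called (adjusted p = 0.304). Of the 4 tested TEAD and VGLL genes, TEAD2 and VGLL4 were lower, where 25.5% of all tested genes were called lower. With the GC trend removed 0 were higher and 1, TEAD2, was lower, where 14.5% and 17.7% of all genes were called. VGLL4, which competes with YAP for TEAD and was picked after its values were seen, was at -0.66 (adjusted p = 0.00778 from limma), and at -0.35 without a call after the GC correction (adjusted p = 0.0583). Among 9 genes of YAP degradation and 14-3-3 proteins, 2 were higher and 2 lower, 22.2% each and near the shares of all tested genes. After the GC correction 1 was higher and 2 lower, where 14.5% and 17.7% of all genes were called. BTRC, a ubiquitin ligase subunit that binds phosphorylated YAP, was at 0.71 (adjusted p = 0.00287 from limma) and at 0.55 after the GC correction. SFN, or 14-3-3 sigma, went from 20.2 ± 10.5 to 2.84 ± 2.48 normalized counts (SD, n = 3 each), a low level for a fold, and its call by limma did not hold in 5 settings. These were the fit without Ctrl replicate 2 (adjusted p = 0.0911 from limma), a pseudocount of 0.1 (0.0527), the replicate block (0.0515), the GC correction (0.0633) and the GC and length correction (0.0623). Most 14-3-3 genes have near-identical pseudogenes, so their counts are uncertain.

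**Figure D5:**
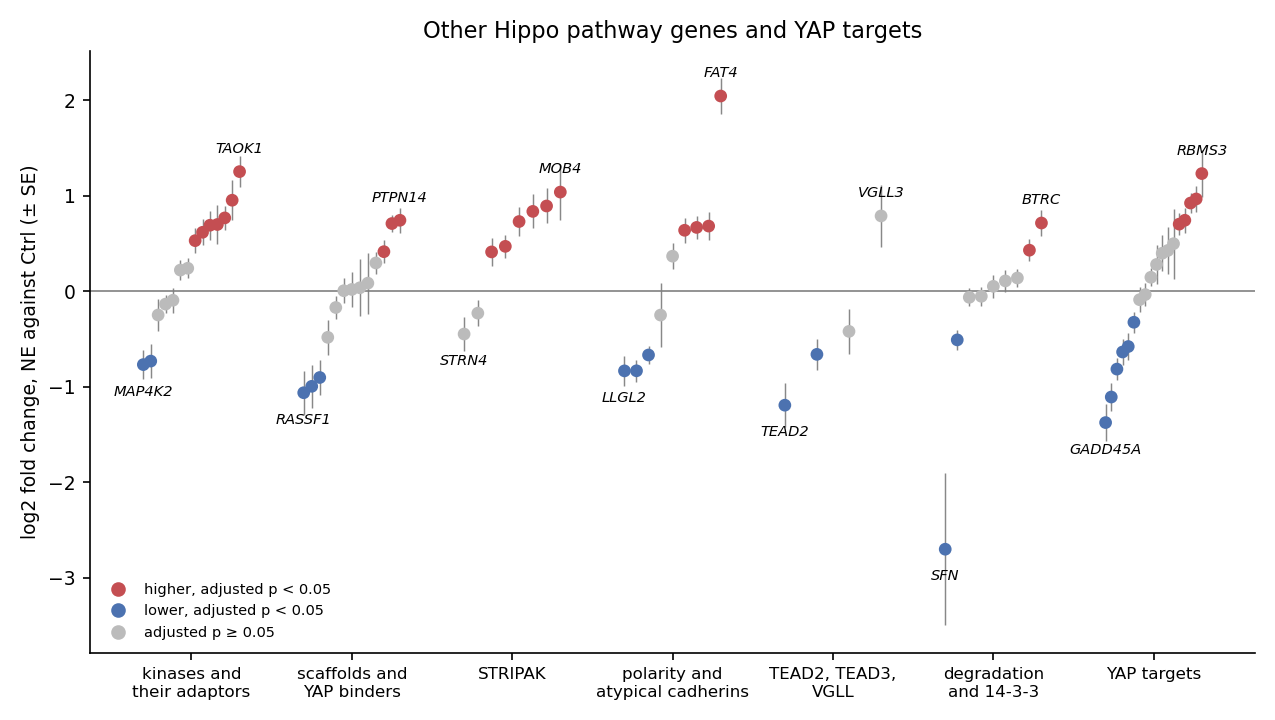
Log2 fold change of NE against Ctrl (± standard error) for the tested genes of 6 groups of other Hippo regulators and of the YAP targets, ordered within each group. Red genes were higher and blue genes lower at an adjusted p under 0.05 from limma, and the lowest and highest gene of each group is named. STRIPAK holds 6 red and 2 grey genes, and FAT4 is the highest gene of all groups.

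A published signature of YAP and TAZ targets, which also holds ANKRD1, LATS2 and AMOTL2, gave 19 further genes, 18 of them tested. In NE-treated cells 5 were higher and 6 lower, 27.8% and 33.3%, where 24.6% and 25.5% of all tested genes were called. Their median log2 fold change was 0.21. After the GC correction 7 were higher and 5 lower, against 14.5% and 17.7% of all genes. CCN1, listed as CYR61, had 10032, 9836 and 7684 normalized counts across the Ctrl libraries and 5144, 6028 and 6508 in the NE libraries. It encodes a matricellular protein, and all NE libraries were below Ctrl, at a log2 fold change of -0.64 (adjusted p = 0.00416 from limma). CCN2, listed as CTGF and encoding the related connective tissue growth factor, had 3231, 3342 and 4150.0 in the Ctrl libraries and 1963, 2104 and 1988 in the NE libraries. This was a log2 fold change of -0.82 (adjusted p = 0.000662 from limma), and after the GC correction CCN1 and CCN2 were at -0.58 and -0.56 (adjusted p = 0.00492 and 0.00894).

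The widely used readouts ANKRD1, CCN1 and CCN2 were thus all lower, and so were IGFBP3, which binds insulin-like growth factors, at -1.11 and GADD45A, a stress response gene, at -1.38 (adjusted p = 0.000453 and 0.000547 from limma). They were at -0.93 and -0.84 after the GC correction. AXL, a receptor tyrosine kinase, and FJX1, both named after their values were seen, were lower at -0.58 and -0.32 (adjusted p = 0.007 and 0.0327), and neither passed after the GC correction, where FJX1 had the opposite sign (0.33). FJX1 was also not called without Ctrl replicate 1 or 2 or any 1 NE library (adjusted p from 0.0555 to 0.13). Other genes of the signature were higher. RBMS3, an RNA-binding protein gene, went from 130.5 ± 45.7 to 295 ± 7.27 normalized counts (SD, n = 3 each), a log2 fold change of 1.23 (adjusted p = 0.00292 from limma). It was at 0.68 after the GC correction, and not called with length corrected as well (adjusted p = 0.0994). The others, named after their values were seen, were NT5E, the ecto-enzyme CD73, at 0.92, DOCK5 at 0.97, CRIM1 at 0.70 and PTPN14 as above, all called after the GC correction as well.

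The genes nearest in pattern to YAP1 over the 6 libraries, by the root mean square difference of centred log2 values, were SMAD2 (0.0261), RAVER2 (0.0418) and ATP6V1C1 (0.0425). SMAD2 went from 1335 ± 156 to 2495 ± 61.5 normalized counts (SD, n = 3 each), and all 3 hold less GC than YAP1, 39.3 to 40.7%. The genes nearest to ANKRD1 were USP2-AS1 (0.186), GADD45B (0.189) and ENSG00000279822, listed as AC016397.2 (0.222). GADD45B went from 930.3 ± 159.8 to 284 ± 62.0 normalized counts (SD, n = 3 each). USP2-AS1 is antisense to another gene and its count is uncertain without strand, and both it and ENSG00000279822 were low, with Ctrl means of 25.2 and 23.9 normalized counts.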

How the data were processed

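Per the labels, the authors used HISAT2 2.0.5 for alignment to hg38 and counted them per gene with featureCounts 1.5.0-p3. Their methods name FPKM. The deposited signal, however, is each gene count over a size factor of its library (0.955 to 1.09): 100% of values were whole reads within 0.01. The library kit was not stated to keep strand. No column was without a sample (0 columns). Groups came from the labels.

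limma 3.58.1 (lmFit, eBayes with trend, R 4.3.3) compared 3 NE with 3 Ctrl libraries on log2(value + 1), for genes with a mean of at least 10, with Benjamini-Hochberg adjustment over all 15013 genes and a threshold of 0.05. The method was tested on simulated data with and without a GC trend, and a pass was required only of limma without the trend. FPKM was recomputed from the recovered reads and merged exons of GENCODE v44, over each library's total reads on genes and not its size factor. The GC correction subtracted from each library a natural spline on GC content (5 degrees of freedom). The 19 other settings covered pseudocounts, filters, scaling, edgeR 4.0.16 and DESeq2 1.42.0 on recovered reads, GC and length corrections, a replicate block and each library left out. Without molecular identifiers, PCR copies count as reads and the error can exceed the counting error.

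The 10 genes and the lists were chosen with earlier results of these data known. From the lists, the text names genes called at 2-fold or more, CCN1, CCN2 and each group's largest called rise and fall, and others as picked after their values were seen. The 3 genes nearest to YAP1 and to ANKRD1 are named. The ratios, TEAD shares and promoter stretches were chosen after the values were seen and carry no test. RASSF6, VGLL1 and the markers SFTPC, SCGB1A1, PTPRC and CD3E were not analysed here, and MAP4K1, CRB3 and FOXF2 were under the minimum mean.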

Additional observations from a re-analysis of the deposited data

How the results depend on the processing

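Over the 19 other settings, YAP1, TEAD1, LATS2, ANKRD1 and AJUBA were called in the same direction in each. The GC correction lowered the number of genes called lower from 4 to 2 of 10, and the number of other regulators called higher from 22 to 8, or to 6 with length as well. Calls over all tested genes fell with it too, from 24.6% to 14.5% higher and from 25.5% to 17.7% lower. After correction for GC content, and for GC content and length, the log2 fold change reversed for WWTR1 (-0.27 and -0.33), AMOTL2 (0.21 and 0.14), TEAD3 (0.17 and 0.24) and FJX1 (0.33 and 0.40), and LATS1 was at -0.0117 with both. STK4 also changed sign with the GC correction, from 0.24 to -0.28. TEAD4 was no longer called after either correction. Leaving out 1 library in turn gave 3 to 5 of the 10 genes higher and 3 to 4 lower, 2 higher by at least 2-fold, and 1 to 2 lower by at least 2-fold, the second being TEAD4 without Ctrl replicate 3. It gave 17 to 27 regulators higher and 11 to 16 lower, and 5 to 6 targets in each direction. Shares of all tested genes were counted only for the reported fit and the GC correction. Counts in the other settings, the replicate block included, therefore have no such base. The deviations of same-numbered libraries from their group means had correlations of -0.163, 0.0799 and -0.151. With 3 libraries a group, and Ctrl replicate 3 apart from the others, these values cannot decide whether the numbers pair libraries. With a replicate block 4 of the 10 genes were higher and 3 lower, 21 regulators higher and 11 lower, and 5 targets higher and 5 lower. AMOTL2 (adjusted p = 0.0564 from limma), SFN (0.0515) and FJX1 (0.0742) lost their calls there. With edgeR and DESeq2 the same 8 genes were called in the same direction. The cause of these changes was not tested. With 3 libraries a group the exact permutation test could not go below p = 0.1, and ANKRD1, SFN and other low genes rest on few reads.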
